A study of Mus musculus with 36 samples.

Results

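The Wnt genes described here are 44 mouse genes that encode secreted Wnt ligands, their Frizzled, LRP, ROR and RYK receptors, the secreted and cell-surface modulators of the pathway and its feedback inhibitors. They were chosen by symbol from the annotation, and all 44 were found among the 52636 genes of the count table. The study labeled perisynaptic Schwann cells (PSCs), the non-myelinating glia that cover the neuromuscular synapse, by joining 2 fluorescent reporters in one mouse, and RNA from sorted cells was sequenced to compare PSCs with the cells that carry only 1 of the reporters. All mice were S100β-GFP;NG2-dsRed mice, so every library comes from animals that carry both transgenes: GFP is driven by the promoter of S100b, a calcium-binding protein of Schwann cells, and dsRed by the promoter of Cspg4, which encodes NG2, a proteoglycan of pericytes, smooth muscle cells and some glia. Diaphragm, pectoralis, forelimb and hindlimb muscles of 1 mouse, aged postnatal day 15 to 21, were pooled for each library and the cells were sorted by FACS, 7500 on average. The groups are NG2DsRed+/S100GFP+ cells, called PSCs here (n = 9 libraries), S100GFP+ cells (n = 8) and NG2DsRed+ cells (n = 10). The sources differ on the oldest age, with day 22 in one place and upper limits that run up to day 46 in the labels. The table holds 1 S100GFP+ library more than the study's methods kept, and since the methods do not name it, 1 of the libraries used here may be one that the study left out. The labels give no treatment, and a group is defined by its fluorescence alone.

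Wnt proteins are lipid-modified ligands that bind Frizzled receptors together with the co-receptors LRP5 and LRP6 and stabilize β-catenin, which then acts with TCF/LEF factors on target genes such as Axin2. Other Wnt proteins act through Frizzled with ROR1, ROR2 or RYK on the cytoskeleton and cell polarity. Secreted frizzled-related proteins (SFRPs) and WIF1 bind Wnt proteins, Dickkopf proteins (DKKs) block LRP5 and LRP6, and R-spondins, bound by LGR4, LGR5 and LGR6, keep Frizzled on the cell surface by removing the ubiquitin ligase ZNRF3. At the neuromuscular junction Wnt signals are known for their part in the clustering of acetylcholine receptors, in which the muscle kinase MuSK carries a Frizzled-like domain.

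Levels are given as CPM, the share of a library's counts that a gene took on the usual CPM scale, with library sizes adjusted by edgeR's TMM factors, as the lowest and the highest library with the median. Fold changes and adjusted p-values come from edgeR's quasi-likelihood test in 1 fit of the 3 cell types over 15330 genes, with Benjamini-Hochberg adjustment, and genes with an adjusted p under 0.05 are called higher or lower. Total counts per library ranged from 5221655 to 9592875, and 3 genes, Lars2, Gm23935 and Gm15564, took 3.64% to 40.0% of them. The reporters' own genes followed the labels: Cspg4 had medians of 718 CPM in PSCs, 53.5 in S100GFP+ and 667 in NG2DsRed+ libraries, and S100b of 160, 30.5 and 5.43 CPM. Of 8 Schwann lineage markers tested, 7 were higher in PSCs than in S100GFP+ libraries, and the summed level of the 9 listed was 2028 to 2960 CPM in PSCs but 61.4 to 428.8 CPM in S100GFP+ libraries, where Sox10, a transcription factor that defines the lineage, had a median of 16.9 CPM against 467 CPM in PSCs. S100GFP+ libraries held myelin genes at a summed 1514 to 3648 CPM (PSCs 2527 to 3437), and they also held the 10 fibroblast markers at 25120 to 55020 CPM (PSCs 1584 to 4647, NG2DsRed+ 3283 to 24970) and the 7 macrophage and leukocyte markers at 348.6 to 2859 CPM (PSCs 2.08 to 14.4, NG2DsRed+ 8.03 to 24.3). NG2DsRed+ libraries held pericyte and smooth muscle markers at 7290 to 15810 CPM (PSCs 795.6 to 1494) and endothelial markers at 1538 to 3551 CPM (PSCs 124.0 to 617.5). Some libraries stood apart: PSC library 18 had the fewest genes above 0 (14616), PSC library 31 had 3859 CPM of the cartilage collagen Col2a1, and S100GFP+ libraries 17 and 22 had 29103 and 38568 genes above 0, against 19669 to 25890 in all libraries but these and PSC library 18.

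Against both other cell types, PSCs had more Wnt6, Fzd1, Fzd3, Sfrp1, Sfrp5 and Lgr4 (6 of 35 members tested, 17.1%) and less of 13 members (37.1%): Wnt2, Wnt5a, Wnt5b, Wnt9a, Wnt11, Fzd4, Fzd5, Lrp6, Ror1, Ror2, Dkk3, Rspo1 and Rspo3. The background over all genes was 13.9% higher and 14.4% lower than in both. The share of Wnt genes lower than both was above that background and the share higher was close to it. The filter on low counts keeps a gene that is high enough in a single cell type, for members and for all genes alike. Wnt2 passed it only through S100GFP+ libraries, so its place among the lower members was not independent of the filter. Wnt11, Rspo1 and Rspo3, like Wnt2, did not pass it in a fit of only PSC and NG2DsRed+ libraries. Their places among the lower members were therefore not shown to be independent of the filter either. The other 9 members, Wnt3, Wnt7b, Wnt10a, Wnt16, Fzd6, Fzd9, Fzd10, Rspo2 and Notum, did not pass the filter on low counts and were not tested.

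Against S100GFP+ libraries, PSCs had more of 7 members and less of 20, and 8 were not called (77.1% called, against 47.0% of all genes, of which 22.9% were higher and 24.1% lower). The median log2 fold change of the 35 members was -1.14, beside 0.04 over all genes. The lower members and this median include Wnt2, Wnt2b and Wnt10b, which passed the filter on low counts only through S100GFP+ libraries. They also include Wnt11, Sfrp2, Wif1, Rspo1, Rspo3 and Lgr5, which did not pass it in a fit of only PSC and NG2DsRed+ libraries. Every PSC library lay above every S100GFP+ library for 4 members and below for 11 (all genes 5.24% and 10.3%). Against NG2DsRed+ libraries, 6 members were higher, 15 lower and 14 not called (60.0% called, all genes 44.0%, with 20.9% higher and 23.1% lower), and the median was -0.65, beside 0.02. Every PSC library was above every NG2DsRed+ library for 5 members and below for 2 (all genes 5.08% and 8.83%). Without PSC libraries 18 and 31 and S100GFP+ libraries 17 and 22, 7 members were higher and 21 lower than in S100GFP+ libraries, and 7 higher and 17 lower than in NG2DsRed+ libraries. In bulk samples of sorted cells, fewer cells that use a gene and less of its RNA per cell cannot be told apart.

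**Figure D1:**
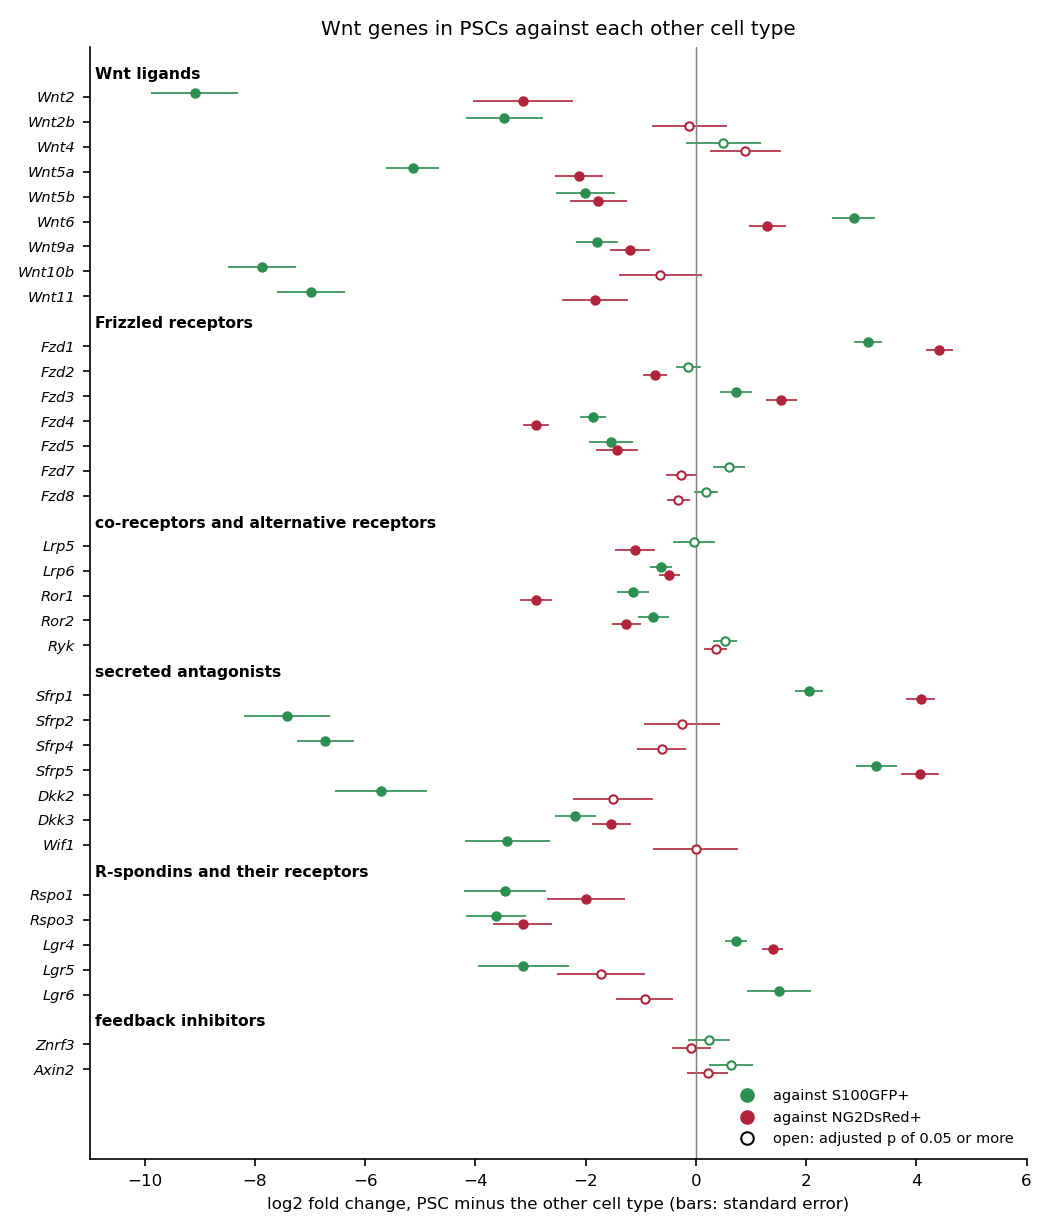
Log2 fold change of each of the 35 Wnt genes tested (horizontal axis, PSC minus the other cell type, bars for the standard error), by role, against S100GFP+ (green) and NG2DsRed+ libraries (red); open points were not called. The fitted values of Wnt2 and Wnt10b rest on 3 and 1 counts in PSCs and depend on the fit's prior count. Points for Fzd1, Sfrp1 and Sfrp5 lie to the right of 2 in both comparisons, and most ligands lie to the left of 0.

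Promoter windows are shown for 4 of the 6 members higher in PSCs than in either other cell type, because these genes share that direction, and for Wnt11, a ligand lower in PSCs. The remaining members higher in PSCs, Fzd3 and Sfrp1, had no promoter entry. RefSeq promoter sequences (GRCm38.p6, 250 bases before each listed start) were found for 27 of the 44 members, in 30 entries with a median GC content of 66.0%, against 52.4% over all 32851 entries. The windows were searched on both strands for the TCF/LEF letters ATCAAAG and TTCAAAG and for the SOX letters ACAAAG and ACAATG. A match of one motif cannot share its CAAAG with the other, since the letter before it differs. The TCF/LEF letters were in 2 of the 30 entries (6.67%), in Wnt11 and Wnt5b, and in 7.48% of all entries. The SOX letters were in 6 (20.0%), in Dkk2, Fzd1, Fzd7, Lgr6, Ror2 and Wnt16, and in 25.2% of all entries. Fzd1, Sfrp5, Wnt6 and Lgr4 had 1 entry each and Wnt11 had 2, and their windows read as follows, 5′ to 3′ on the gene's strand, with matches in capitals.
Fzd1, chr5:4758217-4758466, minus strand: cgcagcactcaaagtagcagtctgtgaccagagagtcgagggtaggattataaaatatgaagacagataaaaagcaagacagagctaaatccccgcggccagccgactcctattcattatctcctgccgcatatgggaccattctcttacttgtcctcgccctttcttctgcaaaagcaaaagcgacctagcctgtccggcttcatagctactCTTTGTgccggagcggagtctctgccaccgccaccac
Sfrp5, chr19:42202253-42202502, minus strand: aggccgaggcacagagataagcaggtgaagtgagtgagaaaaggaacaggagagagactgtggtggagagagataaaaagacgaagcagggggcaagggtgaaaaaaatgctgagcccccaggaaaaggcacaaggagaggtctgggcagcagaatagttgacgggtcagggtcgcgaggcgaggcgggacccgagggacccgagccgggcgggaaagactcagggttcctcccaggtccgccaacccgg
Wnt6, chr1:74771642-74771891, plus strand: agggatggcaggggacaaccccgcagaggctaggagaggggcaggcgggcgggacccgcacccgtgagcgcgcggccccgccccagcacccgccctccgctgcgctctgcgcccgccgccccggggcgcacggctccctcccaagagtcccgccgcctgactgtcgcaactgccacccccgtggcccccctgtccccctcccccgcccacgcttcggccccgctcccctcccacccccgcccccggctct
Lgr4, chr2:109917397-109917646, plus strand: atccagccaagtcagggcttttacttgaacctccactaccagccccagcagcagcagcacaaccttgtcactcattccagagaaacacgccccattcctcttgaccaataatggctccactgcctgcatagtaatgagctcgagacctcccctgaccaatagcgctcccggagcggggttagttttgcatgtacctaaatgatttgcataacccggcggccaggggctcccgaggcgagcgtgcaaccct
Wnt11, first entry, chr7:98834862-98835111, plus strand: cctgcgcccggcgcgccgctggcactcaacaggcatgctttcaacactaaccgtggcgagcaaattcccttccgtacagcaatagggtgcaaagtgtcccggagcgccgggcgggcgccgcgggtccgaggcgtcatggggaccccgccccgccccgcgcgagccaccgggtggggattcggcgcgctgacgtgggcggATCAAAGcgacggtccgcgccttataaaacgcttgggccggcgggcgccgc
Wnt11, second entry, chr7:98838595-98838844, plus strand: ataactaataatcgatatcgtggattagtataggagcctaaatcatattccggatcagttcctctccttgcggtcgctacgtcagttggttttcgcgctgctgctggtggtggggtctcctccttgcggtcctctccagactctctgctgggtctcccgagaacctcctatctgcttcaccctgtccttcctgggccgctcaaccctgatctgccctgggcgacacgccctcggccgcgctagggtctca
The capitals of Fzd1 are a SOX match on the other strand and those of the first Wnt11 entry a TCF/LEF match. The second Wnt11 entry and the windows of Sfrp5, Wnt6 and Lgr4 hold neither motif.

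The Wnt ligands were a low-level group in PSCs. The summed level of the 13 ligands was 15.4 to 30.3 CPM (median 21.0) in PSCs and 19.2 to 37.7 CPM (median 25.0) in NG2DsRed+ libraries, and 134.3 to 285.2 CPM (median 170.4) in S100GFP+ libraries, which lay above all others. Of the 9 ligands tested, 1 was higher and 7 were lower in PSCs than in S100GFP+ libraries (median log2 fold change -3.48), and 1 was higher and 5 were lower than in NG2DsRed+ libraries (-1.19). Wnt2, Wnt2b and Wnt10b, among the 7, passed the filter on low counts only through S100GFP+ libraries. Wnt11, also among the 7, did not pass it in a fit of only PSC and NG2DsRed+ libraries. Against S100GFP+ libraries, the 7 ligands were lower along with 10 of 10 fibroblast and 7 of 7 macrophage and leukocyte markers. Against NG2DsRed+ libraries, the 5 ligands were lower along with 10 of 10 fibroblast and 3 of 7 macrophage and leukocyte markers. In that comparison 7 of 7 endothelial and 9 of 10 pericyte and smooth muscle markers were lower in PSCs too. No fibroblast marker was at 0 in PSCs. The markers' part in the result was not tested.

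Wnt6, a ligand known from epithelia, was the member ligand with the highest level per length in PSCs. It was at 7.27 to 17.1 CPM (median 14.2) in PSCs, 0.500 to 5.77 CPM (median 1.45) in S100GFP+ and 2.03 to 8.09 CPM (median 5.47) in NG2DsRed+ libraries. Every PSC library was above every S100GFP+ library, and 8 of the 9 were above every NG2DsRed+ library. Wnt6 was 7.28-fold higher in PSCs than in S100GFP+ libraries (log2 fold change 2.86 ± 0.39 standard error, adjusted p = 4.25e-07) and 2.46-fold higher than in NG2DsRed+ libraries (1.30 ± 0.33, adjusted p = 0.00188). With a median of 6.50 CPM per kilobase of exon, a scale on which genes can be compared, it stood sixth among the members in PSCs, and no other ligand was among the top 8 there.

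Wnt11, a ligand of cell movements and of early muscle and heart development, showed the opposite order. It was at 0 to 3.58 CPM (median 0.0956) in PSCs, with 4 of 9 libraries at 0, against 37.7 to 120.1 CPM (median 59.3) in S100GFP+ libraries and 0.970 to 2.84 CPM (median 1.72) in NG2DsRed+ libraries. The PSC and S100GFP+ libraries did not overlap, while PSC library 31 was above all NG2DsRed+ libraries. Wnt11 was 126-fold lower in PSCs than in S100GFP+ libraries (log2 fold change -6.98 ± 0.62, adjusted p = 1.5e-10) and 3.54-fold lower than in NG2DsRed+ libraries (-1.83 ± 0.60, adjusted p = 0.0135). Without PSC library 31 these differences were 351-fold (-8.46, adjusted p = 2.67e-13) and 9.86-fold (-3.30, adjusted p = 6.12e-06).

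Wnt5a, the main ligand of ROR receptors, was at 0 to 3.44 CPM (median 1.71) in PSCs, 30.3 to 107 CPM (median 62.1) in S100GFP+ and 1.70 to 13.3 CPM (median 7.22) in NG2DsRed+ libraries. S100GFP+ libraries were above all others, and the lowest NG2DsRed+ libraries were within the PSC range. PSCs had 35.3-fold less than S100GFP+ libraries (log2 fold change -5.14 ± 0.48, adjusted p = 3.56e-10) and 4.35-fold less than NG2DsRed+ libraries (-2.12 ± 0.43, adjusted p = 0.000186). Its relative Wnt5b was at 0 to 4.43 CPM (median 0.473) in PSCs, 3.38 to 10.2 CPM (median 4.67) in S100GFP+ and 2.13 to 6.49 CPM (median 4.25) in NG2DsRed+ libraries. Most PSC libraries were below both other groups, and a few reached into them. Wnt5b was 4.01-fold lower than in S100GFP+ (adjusted p = 0.00288) and 3.42-fold lower than in NG2DsRed+ libraries (adjusted p = 0.00596).

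Wnt9a, a ligand of joint and blood stem cell development, was at 0.470 to 4.95 CPM (median 1.11) in PSCs, 2.75 to 8.65 CPM (median 5.91) in S100GFP+ and 2.49 to 5.66 CPM (median 3.82) in NG2DsRed+ libraries. In each comparison 7 of the 9 PSC libraries were below the other group. The difference was 3.48-fold against S100GFP+ (log2 fold change -1.80 ± 0.38, adjusted p = 0.000274) and 2.28-fold against NG2DsRed+ libraries (-1.19 ± 0.36, adjusted p = 0.00876). Wnt2b was at 0 to 1.56 CPM (median 0.209) in PSCs, 2.61 to 9.18 CPM (median 5.47) in S100GFP+ and 0 to 1.40 CPM (median 0.366) in NG2DsRed+ libraries. The S100GFP+ libraries were above all others, and PSCs and NG2DsRed+ libraries covered each other. Wnt2b was 11.1-fold lower in PSCs than in S100GFP+ libraries (adjusted p = 0.00014), and its log2 difference from NG2DsRed+ libraries was -0.12 ± 0.68 (adjusted p = 0.904).

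Wnt2 and Wnt10b, ligands of the β-catenin branch that act among others in lung and in fat and bone, were at the limit of detection in PSCs. Wnt2 had 3 counts in PSCs, all in library 6, against 1389 counts in S100GFP+ libraries (10.8 to 70.4 CPM, median 22.7) and 31 in NG2DsRed+ libraries (0 to 1.98 CPM, median 0.220). PSC and S100GFP+ libraries were far apart, and several NG2DsRed+ libraries were at 0 like most PSC libraries. The ratio of the summed levels was 756 to 1 against S100GFP+ (95% exact interval 258 to 3670, counting error only) and 12.2 to 1 against NG2DsRed+ libraries (3.82 to 62.6), and Wnt2 was called lower in PSCs in both comparisons (adjusted p = 8.58e-11 and 0.00565). Without PSC library 6, every PSC library was at 0 and both calls held (adjusted p = 1.08e-08 and 0.00284), and without NG2DsRed+ library 28, with 13 of the 31 counts, the second held as well (0.0259). With limma-voom, however, Wnt2 was not called against NG2DsRed+ libraries (log2 fold change -1.93, adjusted p = 0.128). Wnt10b had 1 count in PSCs, 2 in NG2DsRed+ and 326 in S100GFP+ libraries (1.94 to 11.8 CPM, median 6.83). All 8 S100GFP+ libraries had counts of it, while 8 of 9 PSC and 8 of 10 NG2DsRed+ libraries were at 0. Its summed level in S100GFP+ libraries stood to that in PSCs as 532 to 1 (94.9 to 21100, adjusted p = 1.52e-11), and no difference between PSCs and NG2DsRed+ libraries was detectable (adjusted p = 0.584).

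Wnt4, the remaining ligand tested, had medians of 2.59, 1.39 and 0.819 CPM in PSCs, S100GFP+ and NG2DsRed+ libraries and was not called in any comparison. The 4 ligands not tested, Wnt3, Wnt7b, Wnt10a and Wnt16, had medians of at most 0.389 CPM in PSCs. Wnt16 had 160 counts in S100GFP+ libraries (1.00 to 7.49 CPM, median 2.71), and each of these was above every NG2DsRed+ library. Wls, the carrier that brings Wnt proteins to the cell surface, was lower in PSCs than in both, by 1.47-fold and 1.23-fold (adjusted p = 0.000485 and 0.0391).

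**Figure D2:**
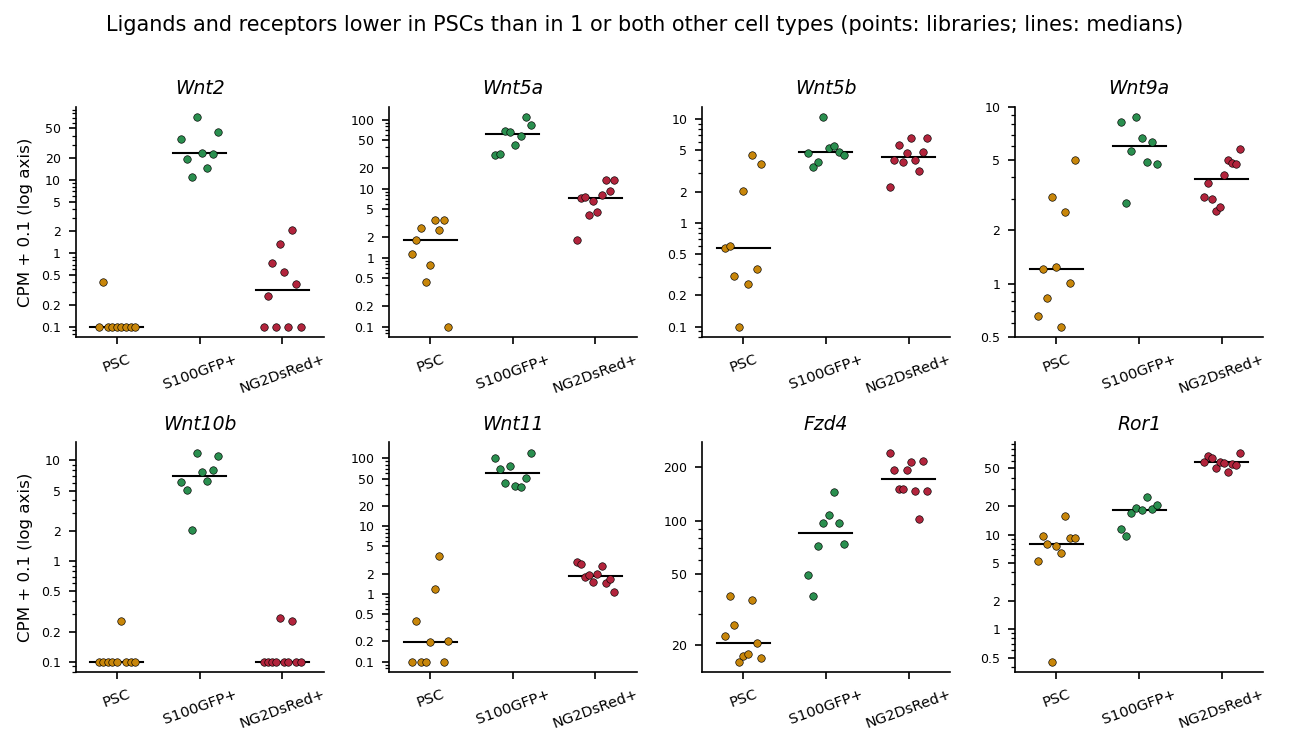
Level in each library (points, CPM + 0.1 on a log axis) with the median (line) of 6 ligands and of Fzd4 and Ror1 in the 3 cell types. For Wnt2, Wnt5a, Wnt10b, Wnt11 and Fzd4 every PSC library lies below every S100GFP+ library, and for Fzd4 and Ror1 every PSC library lies below every NG2DsRed+ library.

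Among the 10 Frizzled genes, the 7-pass receptors of Wnt proteins, PSCs had a different member in the lead than the other cells. Fzd1 (GRCm38 chromosome 5, 4753839 to 4758035, minus strand) was at 176 to 454 CPM (median 261) in PSCs, 13.0 to 50.2 CPM (median 36.0) in S100GFP+ and 9.64 to 18.3 CPM (median 13.0) in NG2DsRed+ libraries. Every PSC library was well above every library of both other groups. Fzd1 was 8.74-fold higher than in S100GFP+ libraries (log2 fold change 3.13 ± 0.25, adjusted p = 2.19e-11) and 21.3-fold higher than in NG2DsRed+ libraries (4.41 ± 0.25, adjusted p = 9.95e-15). Per kilobase of exon it was the second most abundant member in PSCs, with a median of 62.2 CPM per kilobase. Its promoter window, shown above, holds a SOX match.

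Fzd4, a receptor of Wnt proteins and of norrin in blood vessels, led all members in NG2DsRed+ libraries at 25.5 CPM per kilobase. It was at 15.9 to 37.4 CPM (median 20.4) in PSCs, 37.8 to 145 CPM (median 85.0) in S100GFP+ and 102 to 241 CPM (median 171) in NG2DsRed+ libraries. PSC libraries were below every other library. Fzd4 was 3.64-fold lower than in S100GFP+ (log2 fold change -1.87 ± 0.23, adjusted p = 1.02e-07) and 7.51-fold lower than in NG2DsRed+ libraries (-2.91 ± 0.23, adjusted p = 2.61e-11). Tspan12, a membrane protein that works with Fzd4 and LRP5 in the norrin signal, was lower in the same order, with medians of 6.74, 12.4 and 85.2 CPM and differences of 2.26-fold and 10.7-fold (adjusted p = 0.00886 and 1.04e-08). Against NG2DsRed+ libraries, both genes moved with the 7 endothelial markers, all lower in PSCs, and with 9 of 10 pericyte and smooth muscle markers. Against S100GFP+ libraries, where both genes were also lower, 1 of 7 endothelial markers was lower and none higher. Of the 10 pericyte and smooth muscle markers, 5 were lower there and 1 was higher. The markers' part in the result was not tested.

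Fzd3, a receptor of axon guidance and planar polarity, was at 13.1 to 30.5 CPM (median 19.5) in PSCs, 4.06 to 27.5 CPM (median 14.2) in S100GFP+ and 4.32 to 12.8 CPM (median 6.63) in NG2DsRed+ libraries. PSC and NG2DsRed+ libraries did not overlap, and S100GFP+ libraries spread over both. Fzd3 was 2.93-fold higher in PSCs than in NG2DsRed+ libraries (log2 fold change 1.55 ± 0.28, adjusted p = 4.3e-05). The 1.66-fold difference from S100GFP+ libraries was just past the threshold (adjusted p = 0.0435), and it was not called without any 1 of PSC libraries 12 and 23 or of S100GFP+ libraries 1, 3, 14, 17, 22 and 27 (adjusted p between 0.0503 and 0.0917). Fzd5 was at 0 to 9.38 CPM (median 2.96) in PSCs, 4.98 to 15.5 CPM (median 10.7) in S100GFP+ and 5.78 to 14.0 CPM (median 10.1) in NG2DsRed+ libraries. Most PSC libraries were below both groups, with library 6 inside both ranges and library 23 inside that of S100GFP+ libraries. Fzd5 was 2.92-fold and 2.70-fold lower (adjusted p = 0.00215 and 0.00299).

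Fzd2, Fzd7 and Fzd8 were at medians of 16.1 to 25.9 CPM in PSCs, 11.9 to 24.8 in S100GFP+ and 19.6 to 37.0 in NG2DsRed+ libraries. Of these, Fzd2 was lower in PSCs than in NG2DsRed+ libraries by 1.67-fold (adjusted p = 0.00566), and the other differences were not called. In PSC library 18 Fzd7 was at 67.6 CPM, where the next PSC library had 29.4, and without this library Fzd7 was lower in PSCs than in NG2DsRed+ libraries (log2 fold change -0.55, adjusted p = 0.0348). Without PSC library 12 it was higher in PSCs than in S100GFP+ libraries (0.70, adjusted p = 0.038), as it was with a covariate for the percentage of Lars2, Gm23935 and Gm15564 (0.98, adjusted p = 0.00268) and without S100GFP+ libraries 14, 17 and 22 (0.83, adjusted p = 0.0409). With limma-voom, Fzd7 (-0.81, adjusted p = 0.00109) and Fzd8 (-0.59, adjusted p = 0.00725) were lower in PSCs than in NG2DsRed+ libraries. Fzd6, Fzd9 and Fzd10 were not tested, and Fzd6 had 2 counts in all libraries together. The summed level of the 10 genes was 276.3 to 584.8 CPM in PSCs, 112.4 to 284.1 in S100GFP+ and 262.1 to 346.9 in NG2DsRed+ libraries.

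**Figure D3:**
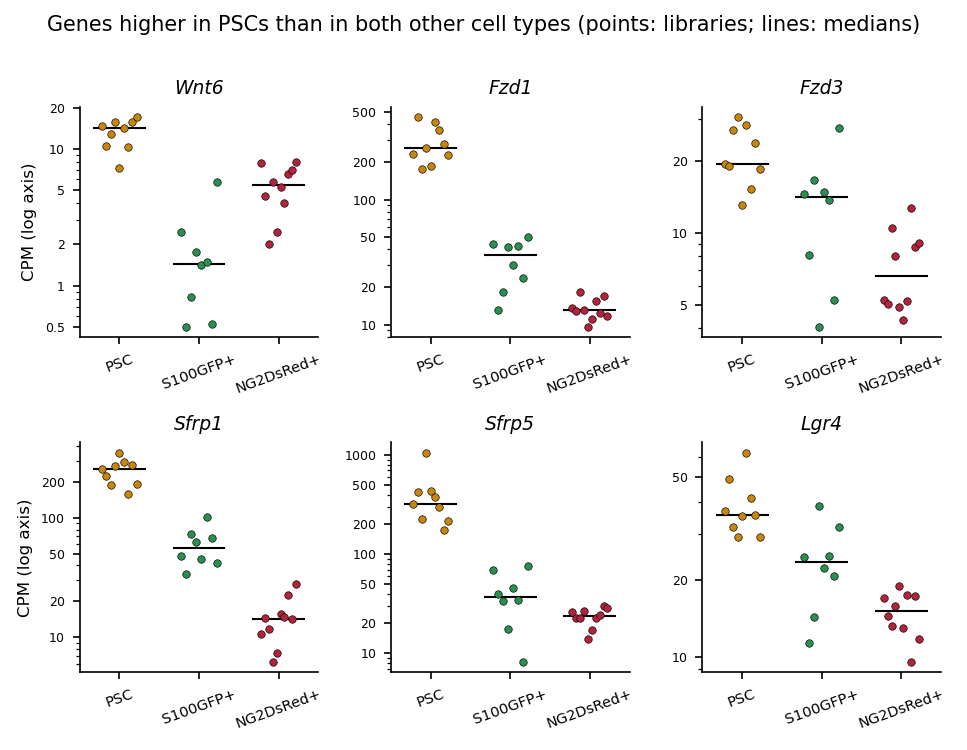
Level in each library (points, CPM on a log axis) with the median (line) of the 6 members higher in PSCs than in either other cell type. For Fzd1, Sfrp1 and Sfrp5 every PSC library lies above every other library, and for Fzd3 and Lgr4 the ranges of PSC and S100GFP+ libraries overlap.

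The co-receptors and alternative receptors were lower in PSCs or not called. Of the 5, 3 were lower than in S100GFP+ libraries and 4 lower than in NG2DsRed+ libraries (median log2 fold changes -0.64 and -1.11). Ror1, a tyrosine kinase-like receptor of Wnt5a, was at 0.350 to 15.4 CPM (median 7.93) in PSCs, 9.50 to 24.5 CPM (median 18.2) in S100GFP+ and 45.9 to 73.1 CPM (median 57.9) in NG2DsRed+ libraries. NG2DsRed+ libraries were above all others. Ror1 was 2.20-fold lower in PSCs than in S100GFP+ (log2 fold change -1.14 ± 0.29, adjusted p = 0.00202) and 7.47-fold lower than in NG2DsRed+ libraries (-2.90 ± 0.29, adjusted p = 2.63e-09). Ror2 was at 1.47 to 9.98 CPM (median 4.80) in PSCs, 5.08 to 12.7 CPM (median 9.13) in S100GFP+ and 5.87 to 17.3 CPM (median 13.2) in NG2DsRed+ libraries. The 3 ranges overlapped. It was 2.40-fold lower than in NG2DsRed+ libraries (adjusted p = 0.000264) and 1.71-fold lower than in S100GFP+ libraries (adjusted p = 0.0228), a call lost without PSC library 4 (adjusted p = 0.0504) or without S100GFP+ libraries 14, 17 and 22 (0.183).

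Lrp6, the co-receptor of Frizzled in the β-catenin branch, was at 17.2 to 91.1 CPM (median 53.5) in PSCs, 53.2 to 109 CPM (median 89.2) in S100GFP+ and 62.1 to 101 CPM (median 75.3) in NG2DsRed+ libraries. The ranges overlapped, and the lowest value was that of PSC library 18. It was 1.55-fold lower than in S100GFP+ (adjusted p = 0.0115) and 1.40-fold lower than in NG2DsRed+ libraries (adjusted p = 0.0452). The second difference was not called without any 1 of PSC libraries 4, 12, 18, 20, 34 and 36, S100GFP+ library 11 or NG2DsRed+ libraries 2, 7, 9, 15, 26, 28, 30 and 35 (adjusted p between 0.0525 and 0.133), and the first was not called without S100GFP+ libraries 14, 17 and 22 together (0.133). Lrp5 had medians of 12.5, 20.4 and 41.4 CPM and was lower in PSCs than in NG2DsRed+ libraries by 2.16-fold (adjusted p = 0.0134). With a covariate for the percentage of reads that Lars2, Gm23935 and Gm15564 took, Lrp5 was not called against NG2DsRed+ libraries (adjusted p = 0.0558) and was higher in PSCs than in S100GFP+ libraries (log2 fold change 0.73, adjusted p = 0.0204, against -0.03 without the covariate). Ryk, a receptor with an inactive kinase domain, was the most abundant of the 5 per kilobase in PSCs (median 14.0 CPM per kilobase), with medians of 63.4, 51.1 and 59.3 CPM, and was not called (adjusted p = 0.052 and 0.163). It was called higher in PSCs than in S100GFP+ libraries without any 1 of PSC libraries 4, 12, 20, 34 and 36, S100GFP+ libraries 14 and 33 or NG2DsRed+ libraries 2, 28 and 35 (adjusted p between 0.012 and 0.0374).

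Secreted antagonists made up the largest summed level of the roles in PSCs, and the family members that carried it differed from those of S100GFP+ libraries. The 7 genes summed to 414.2 to 1349 CPM (median 600.4) in PSCs, 612.7 to 1001 CPM (median 720.2) in S100GFP+ and 46.5 to 122.6 CPM (median 69.9) in NG2DsRed+ libraries. All 7 were called between PSCs and S100GFP+ libraries, 2 higher and 5 lower, and 3 of 7 between PSCs and NG2DsRed+ libraries, 2 higher and 1 lower. Sfrp2 and Wif1, among the 5 lower, did not pass the filter on low counts in a fit of only PSC and NG2DsRed+ libraries. Per kilobase Sfrp5 led the members in PSCs (170.5 CPM per kilobase), and Sfrp2 (124.6), Sfrp4 (41.4) and Dkk2 (23.9) led in S100GFP+ libraries.

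Sfrp1 and Sfrp5 encode secreted frizzled-related proteins, which carry the Wnt-binding domain of Frizzled without its membrane part. Sfrp5 (chromosome 19, 42197971 to 42202252, minus strand) was at 174 to 1058 CPM (median 324) in PSCs, 8.19 to 75.2 CPM (median 37.1) in S100GFP+ and 14.0 to 30.0 CPM (median 23.5) in NG2DsRed+ libraries. Every PSC library was above every other library, and PSC library 18 was far above the rest. Sfrp5 was 9.67-fold higher than in S100GFP+ (log2 fold change 3.27 ± 0.37, adjusted p = 1.37e-08) and 16.7-fold higher than in NG2DsRed+ libraries (4.06 ± 0.35, adjusted p = 8.82e-11). Sfrp1 was at 158 to 352 CPM (median 255) in PSCs, 33.9 to 102 CPM (median 55.8) in S100GFP+ and 6.23 to 27.8 CPM (median 14.3) in NG2DsRed+ libraries. The 3 groups did not overlap and stood in the order PSC, S100GFP+, NG2DsRed+. Sfrp1 was 4.13-fold higher than in S100GFP+ (log2 fold change 2.05 ± 0.26, adjusted p = 9.91e-08) and 16.9-fold higher than in NG2DsRed+ libraries (4.08 ± 0.26, adjusted p = 1.51e-13).

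Sfrp2 and Sfrp4 went the other way. Sfrp2 was at 0 to 12.8 CPM (median 0.287) in PSCs, 204 to 448 CPM (median 268) in S100GFP+ and 0.154 to 7.23 CPM (median 1.48) in NG2DsRed+ libraries. S100GFP+ libraries were above all others, and PSC library 18 held 73 of the 108 PSC counts. Sfrp2 was 171-fold lower in PSCs than in S100GFP+ libraries (log2 fold change -7.42 ± 0.78, adjusted p = 4.28e-09), and 562-fold lower without PSC library 18 (-9.13, adjusted p = 1.16e-12). Its difference from NG2DsRed+ libraries was not called (-0.25 ± 0.69, adjusted p = 0.802), but without PSC library 18 it was lower in PSCs (-1.94, adjusted p = 0.00478). Sfrp4 was at 0.316 to 4.73 CPM (median 1.69) in PSCs, 120.2 to 334 CPM (median 173) in S100GFP+ and 0 to 6.24 CPM (median 3.21) in NG2DsRed+ libraries. It too was high in S100GFP+ libraries alone. Sfrp4 was 106-fold lower in PSCs than in S100GFP+ libraries (log2 fold change -6.72 ± 0.51, adjusted p = 7.38e-12), and the difference from NG2DsRed+ libraries was -0.62 ± 0.45 (adjusted p = 0.277).

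Dkk2, which blocks LRP5 and LRP6, was at 0 to 10.5 CPM (median 0.429) in PSCs, 52.1 to 243 CPM (median 88.5) in S100GFP+ and 0 to 25.9 CPM (median 2.47) in NG2DsRed+ libraries. The S100GFP+ libraries were above all others. Dkk2 was 52.4-fold lower in PSCs than in S100GFP+ libraries (log2 fold change -5.71 ± 0.83, adjusted p = 1.35e-06), or 87.1-fold without PSC library 34 (-6.45, adjusted p = 4.06e-07). It was not called against NG2DsRed+ libraries (-1.50 ± 0.73, adjusted p = 0.0969), where it was lower without PSC library 34 (-2.22, adjusted p = 0.0171). Dkk3, a divergent member of the family, was at 0.350 to 15.0 CPM (median 10.2) in PSCs, 16.1 to 60.4 CPM (median 48.1) in S100GFP+ and 9.65 to 45.8 CPM (median 25.3) in NG2DsRed+ libraries. PSC and S100GFP+ libraries did not overlap. Dkk3 was 4.57-fold and 2.90-fold lower in PSCs (adjusted p = 1.62e-05 and 0.000747). Wif1, which binds Wnt proteins outside the cell, was at 0 to 6.48 CPM (median 0.175) in PSCs, 3.13 to 32.8 CPM (median 10.7) in S100GFP+ and 0.154 to 3.56 CPM (median 0.946) in NG2DsRed+ libraries. PSC library 34 alone reached the S100GFP+ range. Wif1 was 10.7-fold lower in PSCs than in S100GFP+ libraries (adjusted p = 0.000512), or 20.2-fold without PSC library 34 (adjusted p = 2.79e-05), and was not called against NG2DsRed+ libraries (adjusted p = 0.997).

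**Figure D4:**
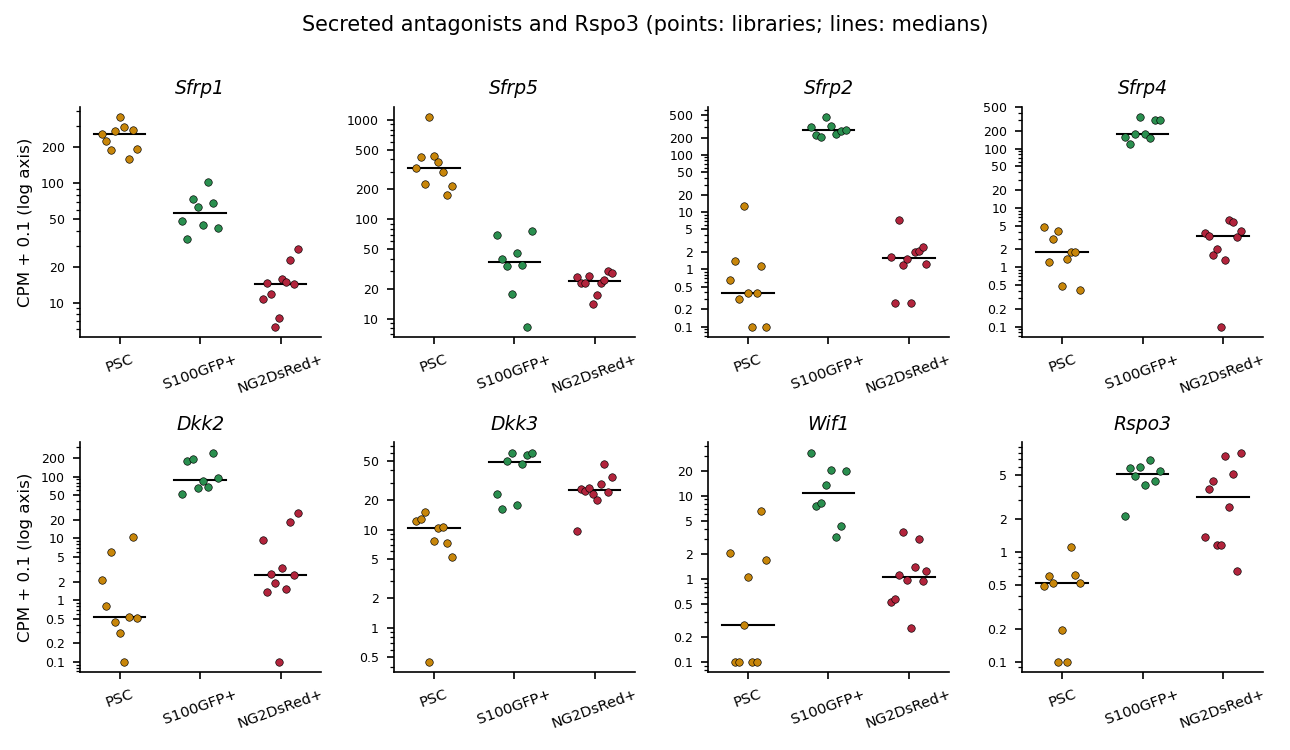
Level in each library (points, CPM + 0.1 on a log axis) with the median (line) of the 7 secreted antagonists and of Rspo3. Sfrp1 and Sfrp5 are highest in PSCs, and Sfrp2, Sfrp4 and Dkk2 are above all other libraries in the 8 S100GFP+ libraries.

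Against S100GFP+ libraries, the 5 antagonists lower in PSCs moved with the fibroblast and the macrophage markers, lower for 10 of 10 and 7 of 7 markers. Against NG2DsRed+ libraries, 10 of 10 fibroblast and 3 of 7 macrophage markers were lower in PSCs, while of these 5 antagonists only Dkk3 was called. In PSC libraries the fibroblast collagens Col1a1 and Col3a1 were at medians of 286 and 577 CPM, and the macrophage gene C1qb at 0.526 CPM. Their part in the result was not tested. Sfrp1 and Sfrp5 moved with the Schwann lineage markers, of which 7 of 8 tested were higher in PSCs than in each other cell type, at a summed 34.1 to 80.6 CPM in NG2DsRed+ libraries. Their part was not tested either.

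R-spondins were scarce in PSCs, and their receptors were split. Rspo1 was at 0 to 1.57 CPM (median 0.236) in PSCs, 0.435 to 9.93 CPM (median 3.38) in S100GFP+ and 0 to 4.73 CPM (median 1.88) in NG2DsRed+ libraries. The 3 ranges overlapped at their lower ends. Rspo1 was 11.0-fold lower in PSCs than in S100GFP+ (adjusted p = 0.000309) and 3.97-fold lower than in NG2DsRed+ libraries (adjusted p = 0.0237), and the second call was lost without NG2DsRed+ library 15 (adjusted p = 0.0619). Rspo3 was at 0 to 1.00 CPM (median 0.417) in PSCs, 2.03 to 6.75 CPM (median 5.09) in S100GFP+ and 0.566 to 7.92 CPM (median 3.04) in NG2DsRed+ libraries. All PSC libraries were below all S100GFP+ libraries, and 8 of 9 below all NG2DsRed+ libraries. Rspo3 was 12.4-fold lower than in S100GFP+ (log2 fold change -3.63 ± 0.55, adjusted p = 2.73e-06) and 8.85-fold lower than in NG2DsRed+ libraries (-3.14 ± 0.53, adjusted p = 1.63e-05). Rspo2 was not tested and had 2 counts in PSCs, 81 in S100GFP+ and 4 in NG2DsRed+ libraries.

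Lgr4, the most widely used R-spondin receptor, was at 29.3 to 62.1 CPM (median 35.7) in PSCs, 11.4 to 38.5 CPM (median 23.3) in S100GFP+ and 9.58 to 18.9 CPM (median 15.2) in NG2DsRed+ libraries. PSC libraries were above all NG2DsRed+ libraries and overlapped with S100GFP+ libraries. Lgr4 was 1.66-fold higher in PSCs than in S100GFP+ (log2 fold change 0.73 ± 0.20, adjusted p = 0.00366) and 2.62-fold higher than in NG2DsRed+ libraries (1.39 ± 0.19, adjusted p = 6.83e-07). Lgr5, a receptor known from stem cells of the gut, was at 0 to 1.36 CPM (median 0) in PSCs, with 6 of 9 libraries at 0, 0.375 to 6.58 CPM (median 2.23) in S100GFP+ and 0 to 1.94 CPM (median 0.983) in NG2DsRed+ libraries. It was low in all groups and their ranges overlapped. Lgr5 was 8.76-fold lower in PSCs than in S100GFP+ libraries (adjusted p = 0.00256) and was not called against NG2DsRed+ libraries (adjusted p = 0.0834), where limma-voom called it lower (-2.62, adjusted p = 0.0121). Lgr6 had medians of 3.11, 1.14 and 6.62 CPM, and its 2.84-fold higher level in PSCs than in S100GFP+ libraries (adjusted p = 0.0356) was not called without any 1 of PSC libraries 12 and 31 or S100GFP+ libraries 3, 11, 27 and 33 (adjusted p between 0.0562 and 0.0707).

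The feedback inhibitors did not pass the test between any of the cell types. Axin2, a scaffold of β-catenin breakdown that is itself a target of the pathway in many tissues, was at 2.52 to 16.5 CPM (median 8.28) in PSCs, 2.76 to 9.97 CPM (median 5.53) in S100GFP+ and 2.05 to 17.6 CPM (median 6.04) in NG2DsRed+ libraries. The ranges overlapped widely. Its log2 fold changes were 0.63 ± 0.40 against S100GFP+ (adjusted p = 0.203) and 0.22 ± 0.37 against NG2DsRed+ libraries (adjusted p = 0.675), and with the percentage of Lars2, Gm23935 and Gm15564 as a covariate they were -0.01 and -0.19. Znrf3, the ubiquitin ligase that removes Frizzled, was at 0 to 14.8 CPM (median 8.17) in PSCs, 4.38 to 11.4 CPM (median 6.18) in S100GFP+ and 5.82 to 11.7 CPM (median 9.04) in NG2DsRed+ libraries. The ranges again covered each other. Its log2 fold changes were 0.24 ± 0.38 (adjusted p = 0.633) and -0.08 ± 0.36 (adjusted p = 0.873), and without PSC libraries 18 and 31 and S100GFP+ libraries 17 and 22 it was higher in PSCs than in S100GFP+ libraries (0.66, adjusted p = 0.0192). Notum, which removes the lipid from Wnt proteins, was not tested and had 22 counts in all libraries together.

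**Figure D5:**
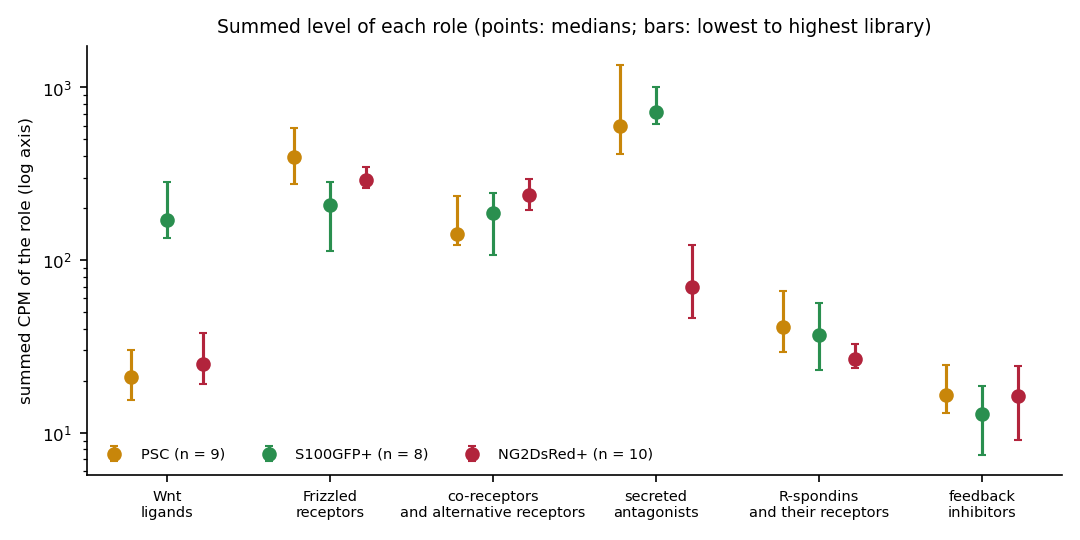
Summed level of the genes of each role (vertical axis, CPM on a log scale; points for medians, bars from the lowest to the highest library) in PSC, S100GFP+ and NG2DsRed+ libraries. Ligands are highest in S100GFP+ libraries, the Frizzled median is higher in PSC than in S100GFP+ libraries, and antagonists are lowest in NG2DsRed+ libraries.

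Between S100GFP+ and NG2DsRed+ libraries, 13 members were higher in S100GFP+, 7 were lower and 15 were not called (57.1% called, all genes 33.3%, with 18.1% higher and 15.2% lower). The 13 include Wnt2, Wnt2b and Wnt10b, which passed the filter on low counts only through S100GFP+ libraries. They also include Wnt11, Sfrp2 and Wif1, which did not pass it in a fit of only PSC and NG2DsRed+ libraries. The ranges did not overlap for 9 members higher and 1 lower (all genes 7.21% and 4.38%). Sfrp2 (log2 fold change 7.17 ± 0.74), Sfrp4 (6.11 ± 0.47) and Wnt11 (5.16 ± 0.53) were among the 13 higher (adjusted p = 5.42e-09, 3.28e-11 and 5.48e-09). The summed level of Wnt10b in S100GFP+ libraries stood to that in NG2DsRed+ libraries as 225 to 1 (95% exact interval 61.7 to 1860). The 7 lower were Wnt6, Fzd2, Fzd4, Fzd7, Lrp5, Ror1 and Lgr6. Ror1 was the member whose S100GFP+ libraries were all below the NG2DsRed+ libraries (-1.76 ± 0.29, adjusted p = 1.8e-05). Fzd2 was not called without any 1 of PSC libraries 4, 12, 20, 34 and 36, S100GFP+ libraries 1, 3, 11, 17, 22 and 27 or NG2DsRed+ libraries 28 and 35 (adjusted p between 0.0511 and 0.121). Lrp5 was not called without any 1 of S100GFP+ libraries 3, 11 and 27 (0.0571 to 0.0613), and Fzd3, among the 13 higher, not without S100GFP+ library 33 (0.12) or NG2DsRed+ library 21 (0.0514). In the other direction, Sfrp5 (0.79, adjusted p = 0.0634) was called higher without any 1 of PSC libraries 12, 18, 34 and 36, S100GFP+ libraries 14 and 27 or NG2DsRed+ library 35 (0.0154 to 0.0489), Dkk3 without PSC library 18 (0.0481) and Rspo1 without NG2DsRed+ library 15 (0.0399), and Fzd8 was called lower without S100GFP+ library 14 (0.0348).

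Of 74 other genes of the Wnt pathway, 58 were tested. Against S100GFP+ libraries 25 were higher in PSCs and 7 lower (55.2% called, all genes 47.0%, median log2 fold change 0.39 beside 0.04 over all genes), and against NG2DsRed+ libraries 19 were higher and 14 lower (56.9%, all genes 44.0%, median 0.08 beside 0.02). A total of 15 were higher in PSCs than in both (25.9%, all genes 13.9%) and 6 lower than in both (10.3%, all genes 14.4%). Among the other ligands, antagonists and co-receptors these were Kremen1, which removes LRP6 from the surface with DKKs, Musk, the kinase of the postsynaptic membrane, and Apcdd1, a membrane-bound inhibitor, all higher, and Tspan12, lower. Kremen1 had medians of 52.3, 40.3 and 18.9 CPM, Musk of 7.41, 3.39 and 1.60 CPM and Apcdd1 of 24.8, 9.17 and 4.58 CPM in PSCs, S100GFP+ and NG2DsRed+ libraries. Musk was 2.44-fold and 3.75-fold higher in PSCs (adjusted p = 0.0118 and 0.000214). Of 6 muscle fibre markers, 1 was higher in PSCs and 5 were not called in each comparison. The part of these markers in the Musk difference was not tested.

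In signal transduction, Frat2, which binds GSK3, was 3.08-fold higher in PSCs than in S100GFP+ and 2.19-fold higher than in NG2DsRed+ libraries (adjusted p = 3.15e-05 and 0.000794). Tnks2, a tankyrase that acts on axin, was 1.39-fold and 1.90-fold lower (adjusted p = 0.0292 and 4.73e-05). Of the 20 genes of this class, 7 were called against S100GFP+ libraries (35.0%, all genes 47.0%) and 5 against NG2DsRed+ libraries (25.0%, all genes 44.0%). Of the 12 nuclear effectors, 6 were higher and 1 lower in PSCs than in S100GFP+ libraries, and 6 were higher and 2 lower than in NG2DsRed+ libraries (all genes 22.9% and 24.1%, and 20.9% and 23.1%). Higher than in both were Tcf7 (2.59-fold and 1.84-fold), Bcl9 (2.74-fold and 1.98-fold), Tle2 (2.42-fold and 2.83-fold), Tle3 (1.39-fold and 2.22-fold) and Pygo1. Tcf7l1, mostly a repressor, was 1.85-fold and 2.07-fold lower (adjusted p = 2.93e-05 and 1.47e-06). Pygo1, a nuclear partner of β-catenin, had medians of 28.8, 10.7 and 10.7 CPM, 2.55-fold and 2.52-fold higher in PSCs (adjusted p = 1.26e-05 and 5.85e-06).

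The largest differences of the wider list were in planar cell polarity, the branch that aligns cells in a tissue, where of 8 genes tested 5 were higher and 2 lower in PSCs than in S100GFP+ libraries, and 4 were higher and 4 lower than in NG2DsRed+ libraries, against the same background. Celsr2, a cadherin of this branch, was at 13.8 to 68.2 CPM (median 25.8) in PSCs, 1.94 to 9.00 CPM (median 4.18) in S100GFP+ and 0.876 to 4.70 CPM (median 1.99) in NG2DsRed+ libraries. PSC libraries were above all others. Celsr2 was 6.61-fold and 14.8-fold higher (adjusted p = 1.31e-07 and 1.15e-10), and Celsr1, which was at 0 in PSC library 18, was 9.41-fold and 16.6-fold higher (adjusted p = 0.00012 and 3.06e-06). Daam2, a formin that acts on the cytoskeleton downstream of Dishevelled, was at 101 to 209.6 CPM (median 128) in PSCs, 2.25 to 15.5 CPM (median 10.7) in S100GFP+ and 52.7 to 127 CPM (median 82.4) in NG2DsRed+ libraries. Its relative Daam1 was lowest in PSCs, with medians of 24.2, 36.7 and 81.7 CPM. Daam2 was 14.2-fold and 1.62-fold higher in PSCs (adjusted p = 1.88e-11 and 0.0242), and Daam1 1.56-fold and 3.85-fold lower (adjusted p = 0.00886 and 2.38e-09). Vangl2, a core membrane protein of this branch, was 3.38-fold and 1.55-fold higher (adjusted p = 6.03e-07 and 0.0186), and its partner Prickle1 2.06-fold and 3.69-fold lower (adjusted p = 0.00673 and 7.25e-06). Among feedback and target genes, Nkd2, an inhibitor of Dishevelled, was 5.53-fold and 3.66-fold higher (adjusted p = 1.67e-08 and 4.13e-07) and Ccnd1, cyclin D1, which other pathways also control, 6.56-fold and 4.54-fold higher (adjusted p = 9.62e-09 and 9.34e-08).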

How the data were processed

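Per the labels and the study's methods, RNA of sorted cells was amplified with SMART-Seq v4 and sequenced, and the authors trimmed reads, aligned them with HISAT2 to GRCm38 and counted them with HTSeq, with versions and use of strand not given in the sources used here. The deposited values are raw counts per gene for 27 of the 36 samples in the labels, the others were not analysed here. Gene symbols came from GENCODE M21, which held 52403 of 52636 identifiers. No 2 libraries of 1 cell type had identical counts. The methods kept 7 S100GFP+ samples, while all 8 in the table were used.

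Genes were filtered with filterByExpr (minimum count 10), scaled by TMM and tested in R 4.3.3 with edgeR 4.0.16's quasi-likelihood test, with Benjamini-Hochberg adjustment. In data simulated for PSC against S100GFP+ libraries, 41.7% of genes changed 2-fold and 89.7% of those changed 4-fold were called among 15131 genes, and 2.26% of calls were false. For PSC against NG2DsRed+ libraries these were 46.6%, 93.8% and 3.47%. The simulation was a single run that changed 200 genes with a mean above 2 CPM and drew counts with the spread estimated by the fit. Far more genes were called in the data and several members lie below that level, so these rates may not hold for them.

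The members and gene lists were chosen with earlier results of these data known, and the promoter motifs after the values were seen. Every member is named, with its range where it differed from both other cell types, or from 1 by at least 4-fold, or stood in a role with under 4 members tested. Other pathway genes are named where they differed from both in 1 direction. Alternatives were the DESeq2 1.42.0 Wald test, DESeq2 size factors, no filter, a filter on a mean count of 5 in 1 cell type, fits of only the compared cell types, limma 3.58.1 voom with quality weights, a test against a 2-fold change, the percentage of Lars2, Gm23935 and Gm15564 as a covariate, and leaving out libraries. Exons of Wnt5a, Wnt11, Fzd5, Sfrp2, Rspo3 and Axin2 overlap a gene on the other strand over 3.80% to 17.8% of their bases, and reads of both cannot be told apart without strand. These partner genes had 0 to 56 counts in all libraries. Intervals cover counting error only.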

Additional observations from a re-analysis of the deposited data

Results flagged for a closer look

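Among the 35 members tested in the 3 cell types, which makes 105 groups of libraries, 13 held a highest library that stood apart from the others by Dixon's test at the 95% level. For normally distributed values chance alone gives about 1 in 20 groups. Low CPM values are skewed and often tied at 0, so the rate to compare with is not known here. Of the 13, 4 were in PSC library 18, which also had the fewest genes above 0 (14616), and 2 in S100GFP+ library 14.

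In PSC library 18, Sfrp5 was at 1058 CPM against 432.9 in the next PSC library, Ryk at 164.5 against 94.7, Fzd7 at 67.6 against 29.4 and Sfrp2 at 12.8 against 1.31 CPM. The same library was the lowest of the PSC libraries, ties included, for 17 of the 35 members and the highest for 7.

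In PSC library 31, which had 3859 CPM of Col2a1, Wnt11 was at 3.58 CPM against 1.10 in the next. In PSC library 34, Wif1 was at 6.48 CPM against 1.97. In PSC library 6, Wnt2 was at 0.302 CPM, and in PSC library 23, Wnt10b was at 0.157 CPM, each with all other PSC libraries at 0.

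In S100GFP+ library 14, Wnt5b was at 10.2 CPM against 5.43 in the next S100GFP+ library and Fzd2 at 47.1 against 32.2 CPM. In S100GFP+ library 33, Wnt6 was at 5.77 CPM against 2.47. Among NG2DsRed+ libraries, Wnt4 was at 4.03 CPM in library 15 against 1.70, and Sfrp2 at 7.23 CPM in library 9 against 2.40.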

How the results depend on the processing

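No called difference of a member changed direction under any alternative. Of the members called, 20 of 27 kept their call against S100GFP+ libraries in every setting that tested them. The same held for 9 of 21 between PSC and NG2DsRed+ libraries and 12 of 20 between S100GFP+ and NG2DsRed+ libraries. Lgr5, among the 20, was tested in only 23 of the 27 fits without 1 library and 9 of the 10 other settings. Rspo3, among the 9, was tested in 9 of these 10. The test against a 2-fold change left 2817, 2802 and 1802 genes in the 3 comparisons, where 7198, 6743 and 5099 were called, with 4 members higher in PSCs than in S100GFP+ libraries, 5 lower than in NG2DsRed+ libraries and 2 lower in S100GFP+ than in NG2DsRed+ libraries, and 8, 14 and 5 other pathway genes. With no filter on low counts, 16556 genes were called against S100GFP+ libraries and 10586 between S100GFP+ and NG2DsRed+ libraries, over more genes tested. Leaving out 1 library gave 5 to 8 members higher and 19 to 21 lower against S100GFP+, 6 higher and 13 to 16 lower against NG2DsRed+ libraries.

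With the percentage of Lars2, Gm23935 and Gm15564 as a covariate, the differences from S100GFP+ libraries of Fzd3 (adjusted p = 0.0714), Lrp6 (0.0771) and Ror2 (0.0682) were not called, while Ryk was higher in PSCs than in both (0.000259 and 0.00271), Fzd7 higher than in S100GFP+ libraries (0.00268), Dkk2 lower than in NG2DsRed+ libraries (0.00294) and Fzd8 lower in S100GFP+ than in NG2DsRed+ libraries (0.0263). With limma-voom, Wnt2 (0.128) and Rspo1 (0.249) were not called against NG2DsRed+ libraries, while Fzd7 (0.00109), Fzd8 (0.00725) and Lgr5 (0.0121) were called lower in PSCs. Between S100GFP+ and NG2DsRed+ libraries limma-voom lost Fzd3 (0.0615) and gained Wnt9a (0.0363), Fzd8 (0.00501), Ror2 (0.0396), Dkk3 (0.0357) and Rspo1 (0.0135). The cause was not tested.

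The log2 fold changes that changed sign were not called in the test as reported. With the covariate, Wnt2b became 0.23, Sfrp2 0.0776, Znrf3 0.10 and Axin2 -0.19 against NG2DsRed+ libraries, and Lrp5 became 0.73 and Axin2 -0.01 against S100GFP+ libraries. Without S100GFP+ libraries 14, 17 and 22, Fzd2 became 0.0379 and Lrp5 0.60 against S100GFP+ libraries, Wif1 0.0406 against NG2DsRed+ libraries, and Wnt4 -0.12, Wnt5b -0.11, Fzd5 -0.0925 and Lrp6 -0.0023 between S100GFP+ and NG2DsRed+ libraries. Without PSC libraries 18 and 31 and S100GFP+ libraries 17 and 22, a setting chosen after seeing the data, Lrp5 became 0.37, Wif1 0.30, Znrf3 0.0719, Wnt4 -0.15 and Fzd5 -0.0405 in the same comparisons. With limma-voom, Lrp5 became 0.13, Wnt4 -0.88, Fzd5 -0.0397 and Axin2 0.0172. Wif1 became 0.0278 with DESeq2, 0.043 with its size factors and 0.0011 with no filter, and Lrp5 0.0102 with no filter. Leaving out 1 library moved Wnt2b from -0.52 to 0.14, Sfrp2 from -1.94 to 0.31, Wif1 from -0.90 to 0.32 and Znrf3 from -0.23 to 0.15 against NG2DsRed+ libraries. It moved Fzd2 from -0.19 to 0.0039 and Lrp5 from -0.25 to 0.21 against S100GFP+ libraries, and Wnt4 from -0.0035 to 0.84 between S100GFP+ and NG2DsRed+ libraries.

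No paired analysis was possible because library numbers are unique to each sample and no label ties libraries of different cell types to 1 mouse. Members under a few CPM, such as Wnt2, Wnt10b, Lgr5 and Rspo1 in PSCs, rest on few counts, so that their fold changes are less certain than those of abundant members. Marker genes of fibroblasts, macrophages, pericytes and endothelium also differed between the cell types, not always in the comparisons where the members did. Their part in the results was not tested.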
